A study of Mus musculus with 18 samples.

Results

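Macrophages that had been differentiated from mouse bone marrow were examined after they had received interferon-gamma (IFNg) together with tumour necrosis factor (TNF), and were set against untreated macrophages. Members were chosen by library title: 3 libraries titled IFNg_TNF, 1 of them spelled IFNg_TNFa, and 3 ending in ctrl, in all 6 of the 18 libraries of the series. All cells carry the label WT and were treated for 18 h. The groups were WT macrophages given IFNg with TNF (from here, the pair), WT macrophages given IFNg alone, and untreated WT macrophages (control), with 3 libraries each. The other 9 libraries, from macrophages given IFNg with lipopolysaccharide (LPS), with hypoxia or with interleukin-1 beta (IL1b), shared the model's estimate of spread and were used for a comparison of additions at the end. The sources used here give no dose, strain, age or sex of the mice. Nor do they say whether each library had its own animal or culture, so p-values measure the spread between these libraries, which may be technical. No group received TNF without IFNg, so an effect of TNF itself cannot be told apart from an effect of TNF in the presence of IFNg.

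IFNg acts through its receptor and the kinases Jak1 and Jak2 on genes whose DNA holds gamma-activated sites, and induces transcription factors such as Irf1. In macrophages this raises antigen presentation, GTPases that attack intracellular microbes, and chemokines that draw T cells. TNF acts through the receptors Tnfrsf1a and Tnfrsf1b on NF-kappaB and on the MAP kinase and AP-1 pathway, and induces cytokines, adhesion molecules and inhibitors of its own signal. The 2 cytokines together are a textbook trigger of nitric oxide production in mouse macrophages.

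The comparison asked what state macrophages were in with both cytokines and which of the changes made by IFNg alone were then deepened, restored or reversed. Counts summed to 15495405 to 20952799 in the libraries with the pair, 14174365 to 17568777 with IFNg alone and 13849367 to 16712369 in control. A level in CPM is a gene's count scaled to a common library size after edgeR's TMM normalization, and the value after ± is the SD of the 3 libraries for a level in CPM or RPKM and the standard error for a log2 fold change. Each adjusted p is edgeR's quasi-likelihood test after Benjamini-Hochberg adjustment over the 11563 tested genes, and a gene was called at 0.05. On the first principal component, which held 38.4% of the variance, the libraries with the pair stood at 92.7, 96.2 and 112.3 and the control libraries at -93.9 to -90.7. The third library with the pair lay farthest out and had the fewest genes with a count, 10820. Without it 5280 genes were called, against 5768 with it. Of the 10 macrophage markers all were measured, with Csf1r, the receptor for the macrophage growth factor, at 7756 ± 109 CPM with the pair and 7350.3 ± 721 CPM in control (SD, n = 3). Under TMM 4 of the 10 were called higher and 3 lower with the pair than in control, and Csf1r was not called. The defining T cell genes Cd3d, Cd3e and Cd3g and the B cell genes Cd79a, Ms4a1 and Pax5 had 0 counts in every library of the pair, IFNg and control groups. Other markers on these lists, such as Ighm and Il7r, were detected. The B cell markers summed to 7.28 to 12.55 CPM with the pair, 504.9 to 578.6 with IFNg and 573.7 to 749.7 in control. The T cell markers summed to 181.4 to 283.0, 43.1 to 59.81 and 125.4 to 140.7 CPM in the same order. TMM assumes that most genes do not change, and its factors were 0.805 to 0.859 with the pair and 1.155 to 1.186 in control. When libraries were instead scaled to the read totals behind the deposited RPKM values, all log2 fold changes of the pair over control moved together, their median by -0.472, and the outcome under that scaling is given beside a gene whose call or sign against control changed and beside a list whose share of higher calls moved by over 10 percentage points. Classes of single genes are those under TMM unless the RPKM totals are named.

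Of 11563 genes, 5768 (49.9%) differed between the pair and control, 2971 (25.7%) higher and 2797 (24.2%) lower. At least 2-fold changes numbered 1739 higher and 1785 lower (30.5% of genes together). In 6350 genes (54.9%) the 3 libraries with the pair and the 3 of control did not overlap. The median log2 fold change of all tested genes was -0.035. Scaling to the RPKM totals gave 1828 higher and 4824 lower, and 4625 calls were made in the same direction under both scalings and 1 in opposite directions. The background for list counts below is 25.7% higher and 24.2% lower under TMM. Under the RPKM totals it is 1828 higher and 4824 lower of 11563. In bulk RNA, fewer cells of a type and less RNA per cell cannot be told apart.

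**Figure D1:**
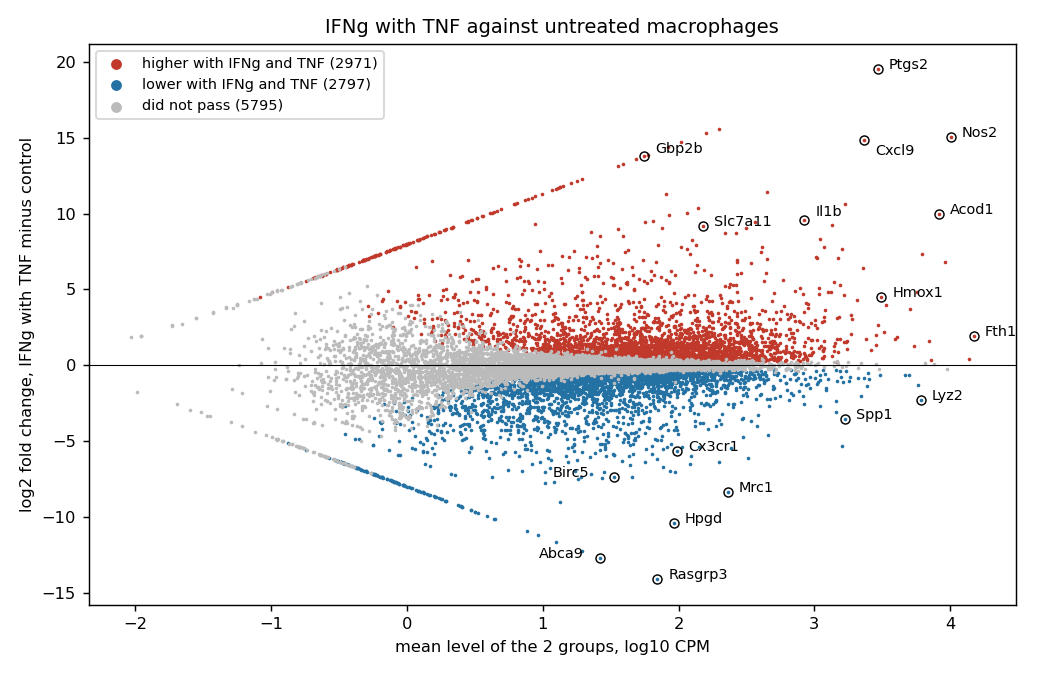
Log2 fold change of the pair minus control (y axis) against the mean level of both groups (x axis, log10 CPM) for 11563 genes, 1 point a gene, with genes called higher, called lower and not called in colour. The straight diagonal edges are genes with 0 counts in one group, whose fitted fold change depends on the prior count; Ptgs2, Nos2 and Cxcl9 lie at the upper right and Rasgrp3, Hpgd and Mrc1 at the bottom.

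The largest rises were led by Ptgs2 and included Nos2. Ptgs2 (mm10 chr1:150100031-150108227), the inducible cyclooxygenase that makes prostaglandins, had 5311, 6359 and 5871 CPM with the pair, 21.7, 27.5 and 21 CPM with IFNg alone and 0 counts in control. No control library held a read of it and every library with the pair lay far above every library with IFNg alone, which puts it at least 102000-fold higher with the pair than in control (adjusted p = 5.19e-22). Here and below, a fold against a group with 0 counts is a lower bound, taken against 3 counts over that group's libraries. Nos2 (mm10 chr11:78920787-78960254), the inducible nitric oxide synthase, had 18055, 21073 and 21178 CPM with the pair, 19, 22.1 and 33.6 CPM with IFNg alone and 0.404, 0.672 and 0.726 CPM in control, and the 3 groups did not overlap. Its log2 fold change over control was 15.04 ± 0.39 (adjusted p = 3.95e-17).

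By length, using the deposited RPKM values, Nos2 stood at rank 16 of all genes with the pair and rank 11260 in control. The itaconate enzyme gene Acod1 stood at rank 4 with the pair and 6493 in control, and the T cell chemokine gene Cxcl9 at rank 3 and 10737. The iron-storage gene Fth1 was the most abundant per length with the pair, at 19280 ± 4090 RPKM, against 7046 ± 1230 RPKM in control, where it ranked 2 (SD, n = 3). Lyz2, the lysozyme of macrophages, was the most abundant in control at 14190 ± 3780 RPKM and stood at rank 20 with the pair at 2091 ± 81.8 RPKM.

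Other genes of the largest rise had 0 counts in control: the ubiquitin-like modifier Ubd (426, 453 and 302 CPM with the pair, at least 7030-fold higher), the surface antigen Ly6i (286, 324 and 342 CPM, at least 5520-fold higher), the chemokine Cxcl11 (146, 219 and 139 CPM, at least 2960-fold higher) and the complement protease C1s1 (89.1, 74.4 and 70.5 CPM, at least 1390-fold higher). The protease inhibitor gene Serpina3f and the GTPase genes Gbp10, Gbp2b and Gbp11 also had 0 counts in control. So did the membrane transporter gene Slc4a11 (at least 1680-fold higher), the kinase gene Wnk2 (at least 1260-fold higher), Heatr9 (at least 573-fold higher) and Gm4841 (at least 689-fold higher). Of these, Heatr9 was not called with IFNg alone (32.2 CPM with the pair, 0.104 CPM with IFNg), while Gm4841 had almost the same level in both stimulated groups (38.8 and 36 CPM).

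At the other end, several surface and signalling genes were not detected with the pair. Rasgrp3 (mm10 chr17:75435896-75529054), an activator of Ras-family GTPases, had 0 counts with the pair, 14.2, 17.1 and 20.6 CPM with IFNg alone and 138, 158 and 122 CPM in control, at least 2130-fold lower than control. The transporter genes Abca9 (at least 809-fold lower), Abca6 (at least 286-fold lower) and Slco2b1 (at least 598-fold lower), the CGRP co-receptor gene Ramp1 (at least 384-fold lower) and the mitotic gene Fam83d (at least 230-fold lower) also had 0 counts with the pair. Hpgd, which inactivates prostaglandins, had 0.333, 0 and 0 CPM with the pair, against 258, 151 and 146 CPM in control (-10.4 ± 0.55, adjusted p = 7.68e-13). Ptgs2 and Hpgd, which act in the synthesis and the breakdown of prostaglandins, thus lay at opposite ends of the comparison, and in neither gene did the groups overlap. The mannose receptor gene Mrc1 (mm10 chr2:14229392-14332057) had 1.83, 2.04 and 0.235 CPM with the pair, 74.9, 52.4 and 85.6 CPM with IFNg alone and 492, 432 and 463 CPM in control, in 3 steps without overlap (-8.32 ± 0.41 over control, adjusted p = 1e-11). Adgre4, Cd300lg, Mamdc2, Pimreg and Sorbs3 were also among the 15 genes of largest fall, at 0.037 to 0.219 CPM with the pair, against 20.5 to 38 CPM in control.

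The changes made by IFNg alone were then sorted by what had become of them with the pair. With IFNg alone 2727 genes were called against control (23.6%), 1566 higher (13.5%) and 1161 lower (10%), and the pair differed from IFNg in 5174 genes (44.7%), 2560 higher (22.1%) and 2614 lower (22.6%). A change was named deepened where the pair was called against IFNg in the same direction, kept where it was not called against IFNg, and, where the pair was called against IFNg in the opposite direction, restored (not called against control), partly restored (called against control on the IFNg side) or reversed (called against control on the other side). The IFNg libraries enter the first 2 contrasts with opposite signs, so sampling error in them pushes genes towards the opposite-direction classes, and the counts are descriptions with no test. Of the 2727 changes, 902 were deepened (7.8% of all tested genes), 915 kept (7.91%), 459 restored (3.97%), 167 partly restored (1.44%) and 284 reversed (2.46%). Against control, 2096 of them were called with the pair. Of the 915 kept changes 743 were called against control with the pair and 172 were not. A further 3672 genes (31.8%) were called with the pair and not with IFNg, 1689 higher and 1983 lower, and 2799 of these also differed between the pair and IFNg.

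Shares of the classes are given apart for genes that IFNg had raised and lowered, and their difference was not tested. Of genes that IFNg raised, 34% were deepened, 35.1% kept, 14.8% restored, 8.43% partly restored and 7.79% reversed. Of genes that IFNg lowered, 31.9% were deepened, 31.5% kept, 19.6% restored, 3.01% partly restored and 14% reversed. The deepened rises had a median log2 fold change of 0.98 with IFNg alone and 2.31 with the pair over control, and the deepened falls -0.95 and -2.52. Reversed genes that IFNg had lowered stood at a median of 1.12 above control with the pair, and those it had raised at -0.92. A restored class rests on a missed threshold, and 366 of the 459 restored genes had a 95% interval of the pair minus control within 1 log2 unit of 0. Under the RPKM totals 298 of the 532 deepened rises were still deepened, and the deepened falls numbered 750, against 370 under TMM. Of the restored genes 77 of 231 raised and 99 of 228 lowered by IFNg were restored under both scalings, and of the reversed genes 79 of 122 and 101 of 162.

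**Figure D2:**
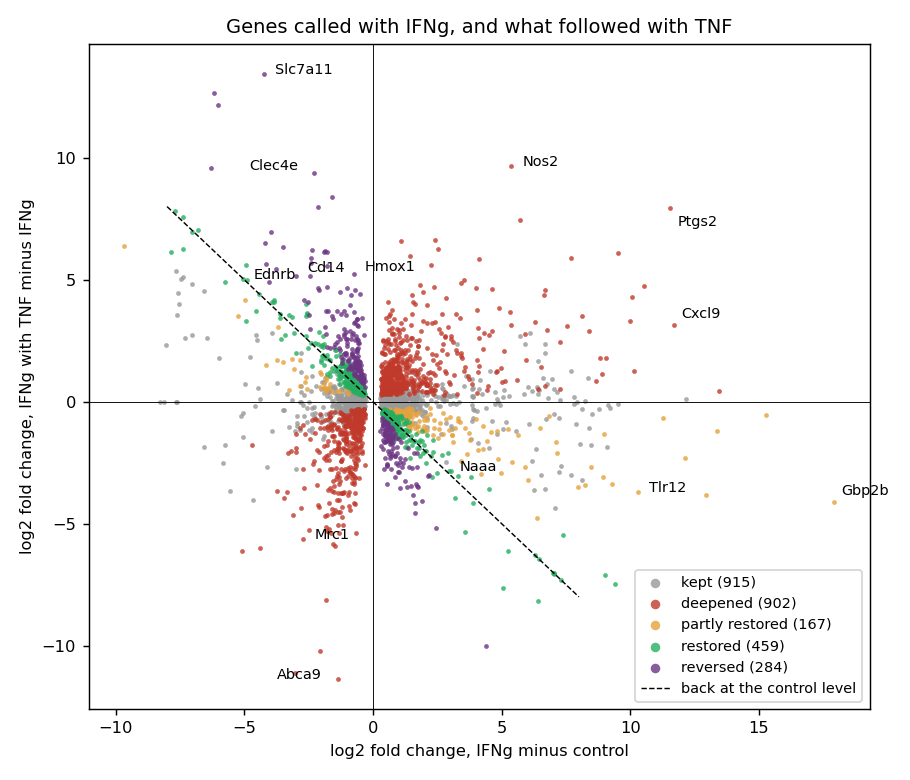
Log2 fold change of the pair minus IFNg (y axis) against that of IFNg minus control (x axis) for the 2727 genes called with IFNg, 1 point a gene, coloured by class; points on the dashed line are back at the control level. Deepened genes fill the upper right and lower left, and restored genes line the diagonal between the reversed genes and the partly restored and kept ones.

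The guanylate-binding proteins and immunity-related GTPases, which IFNg induces to attack microbes inside vacuoles, were all 20 higher with the pair than in control (background 25.7% of genes higher), with a median log2 fold change of 6.12. TNF did not move them together: 12 were deepened, 4 kept and 4 partly restored, and under the RPKM totals 8 of the 12 were deepened. Gbp5 (mm10 chr3:142493978-142522344) had 3048, 3349 and 3081 CPM with the pair, 879, 1030.0 and 989 CPM with IFNg alone and 11.5, 15.4 and 20.5 CPM in control. Each library with the pair lay above each with IFNg alone, with a log2 fold change of 1.71 ± 0.14 over IFNg (adjusted p = 5.62e-11) and 7.65 ± 0.18 over control. Gbp2b (mm10 chr3:142594847-142619179) went the other way, with 94.6, 131 and 109 CPM with the pair, 1963, 1898 and 1962 CPM with IFNg alone and 0 counts in control. It was at least 1940-fold higher than control with the pair yet lower than with IFNg alone by a log2 fold change of -4.12 ± 0.17 (adjusted p = 3.01e-15). Gbp4, Gbp2 and Tgtp1 were deepened to 3368, 12390.0 and 890.0 CPM, against 970.1, 7874 and 371 CPM with IFNg and 2.16, 76.5 and 0.324 CPM in control, while Gbp8, Gbp9 and Gbp11 were partly restored. Members of this family are alike in sequence, and the sources used here do not say how reads were divided among them.

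The start regions of 2 genes of this family with opposite responses to TNF, Gbp5 and Gbp2b, and of 2 other genes deepened by the pair, Cxcl10 and Ubd, are shown from 250 bases before to 50 bases after the gene's start (RefSeq, GRCm38.p6, the build equal to mm10, 5′ to 3′ on the gene's strand). These 4 were chosen after their motifs had been seen. Capitals mark the gamma-activated site TTCNNNGAA, the interferon-stimulated response element (GAAA and GAAA with any 2 bases between), the kappaB site (GGG and TTTCC with any 2 bases between), the AP-1 site TGANTCA and the antioxidant response element TGACNNNGC, searched on both strands. Gbp5 lies at chr3:142496684-142496983, plus strand, Gbp2b at chr3:142594597-142594896, plus strand, Cxcl10 at chr5:92348840-92349139, minus strand, and Ubd at chr17:37193642-37193941, plus strand. RefSeq places the start of Gbp5 inside the longer gene span given above, so its window is not at the start of that span.
Gbp5: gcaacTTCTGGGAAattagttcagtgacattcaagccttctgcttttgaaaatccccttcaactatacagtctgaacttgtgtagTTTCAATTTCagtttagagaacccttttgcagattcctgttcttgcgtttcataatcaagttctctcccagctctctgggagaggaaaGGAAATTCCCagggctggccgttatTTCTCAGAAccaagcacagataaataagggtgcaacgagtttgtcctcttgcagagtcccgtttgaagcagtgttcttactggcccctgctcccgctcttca
Gbp2b: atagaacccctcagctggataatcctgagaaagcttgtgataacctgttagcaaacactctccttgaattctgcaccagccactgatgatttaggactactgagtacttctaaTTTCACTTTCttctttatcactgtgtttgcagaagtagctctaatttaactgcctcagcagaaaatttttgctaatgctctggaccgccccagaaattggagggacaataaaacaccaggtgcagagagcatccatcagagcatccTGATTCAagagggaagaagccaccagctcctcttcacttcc
Cxcl10: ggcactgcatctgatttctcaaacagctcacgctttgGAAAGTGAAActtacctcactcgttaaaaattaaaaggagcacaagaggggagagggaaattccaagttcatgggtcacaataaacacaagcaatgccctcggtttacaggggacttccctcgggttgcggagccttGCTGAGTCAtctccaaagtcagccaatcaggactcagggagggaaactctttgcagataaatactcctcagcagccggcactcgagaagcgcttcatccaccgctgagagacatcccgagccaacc
Ubd: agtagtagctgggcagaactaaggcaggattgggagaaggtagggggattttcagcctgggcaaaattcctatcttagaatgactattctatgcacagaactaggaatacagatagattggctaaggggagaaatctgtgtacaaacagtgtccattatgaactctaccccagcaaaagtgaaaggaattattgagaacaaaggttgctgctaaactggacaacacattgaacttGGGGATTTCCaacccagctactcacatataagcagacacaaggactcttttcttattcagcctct
In Gbp5 the capitals are gamma-activated sites at bases 6 and 199 of the window, an interferon-stimulated response element at 86 and a kappaB site at 174. Gbp2b holds an interferon-stimulated response element at 114 and an AP-1 site at 260. Cxcl10 holds an interferon-stimulated response element at 38 and, overlapping at 175 and 177, an antioxidant response element and an AP-1 site, and Ubd a kappaB site at 236. Only exact matches to the letters are marked. Cxcl10 also holds unmarked stretches that come close to the kappaB letters, so a missing mark does not show that a site is absent. The interferon-stimulated response element occurred in 10 of the 11 GTPase genes that had a window, in 11.19% of the deepened genes that IFNg raised, in 13.19% of the partly restored, 8.75% of the kept, 7.92% of the reversed and 4.28% of the restored ones, in 4.07% of tested genes and in 3.44% of all 32851 windows. The kappaB site occurred in 3.41% of deepened rises, 2.13% of tested genes and 1.63% of all windows. Its share was not particular to deepened rises. Of genes that IFNg lowered, it occurred in 3.25% of the reversed, 3.85% of the partly restored, 2.75% of the restored, 2.44% of the deepened and 0.69% of the kept. The gamma-activated site occurred in 11.19% of deepened rises and 8.34% of tested genes, and the AP-1 site in 9.49% and 6.37%. A match of letters is a description and does not show binding.

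The chemokine genes split by sign: 11 of 19 rose and 5 fell against control. Those that rose included the ligands of Cxcr3, a chemokine receptor of T cells. Cxcl9 (mm10 chr5:92321347-92328079) had 3904, 6087 and 3907 CPM with the pair, 528, 539 and 495 CPM with IFNg alone and 0.404, 0 and 0 CPM in control and Cxcl10 had 1957, 2567 and 1605 CPM with the pair, 239.8, 232 and 277 CPM with IFNg alone and 22.2, 10.1 and 11.3 CPM in control. Both were deepened and showed 3 separate levels, with log2 fold changes over IFNg of 3.15 ± 0.20 and 3.03 ± 0.22. Ccl5, a chemokine for T cells and monocytes, rose by 9.25 ± 0.20 to 2682 ± 139 CPM, against 4.4 ± 0.325 CPM in control (SD, n = 3; adjusted p = 4.91e-23). The neutrophil chemokine gene Cxcl3 had 12.3, 20 and 14.6 CPM with the pair and 0 counts with IFNg alone and in control (at least 272-fold higher), and Ccl7 was at least 212-fold higher. Ccl9, Ccl6, Ccl3 and Ccl4 fell, Ccl9 to 44.9 ± 9.74 CPM with the pair, against 715 ± 175 CPM in control (-4.0 ± 0.29), and Ccl24 was at least 22.1-fold lower. Ccl22 (4.22 CPM with the pair and 1.47 CPM in control) and Pf4 (22.4 and 22.6 CPM) did not pass the test.

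Of the 18 migration receptors 11 rose and 6 fell, or 9 and 6 under the RPKM totals. Of all tested genes 25.7% rose and 24.2% fell under TMM. The formyl peptide receptors, which sense bacterial and mitochondrial peptides, rose most: Fpr2 had 253, 182 and 257 CPM with the pair, against 0.858, 0.55 and 1.94 CPM in control (7.7 ± 0.35, adjusted p = 3.15e-14), and Fpr1 rose by 7.85 ± 0.60. Ccrl2, a receptor that presents chemerin, was deepened to 874 CPM, against 56.2 CPM with IFNg and 13 CPM in control. Ccr7, which guides cells to lymph nodes, was called with the pair and not with IFNg alone (4.28 ± 0.60). The chemokine receptor gene Ccr1 was deepened upward under both scalings. Cx3cr1, the fractalkine receptor, was among the 6 that fell. It had 3.95, 6.9 and 0 CPM with the pair, 6.1, 7.83 and 2.46 CPM with IFNg alone and 205, 155 and 212 CPM in control. The fall of Cx3cr1 was there with IFNg alone and was kept, and the libraries of the 2 stimulated groups overlapped. Ccr2, the receptor for Ccl2, was not called with IFNg alone and stood at 30.2 ± 7.97 CPM with the pair, against 366 ± 41.8 CPM in control (-3.6 ± 0.21).

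Effector enzymes of arginine, itaconate and tryptophan metabolism included large rises beside that of Nos2. In this list of 27 genes 16 rose and 7 fell. Acod1 had 16483, 16719 and 16249 CPM with the pair, 260.5, 302 and 291 CPM with IFNg alone and 14.7, 17.8 and 16.5 CPM in control (9.98 ± 0.20 over control, adjusted p = 6.75e-24). The arginine importer gene Slc7a2 and the citrulline-recycling gene Ass1 were deepened by 9.06 ± 0.35 and 6.26 ± 0.36 over control, to 631 ± 81.3 and 301 ± 73.7 CPM. Both arginases were higher as well: Arg1, the cytosolic one, had 21.3, 10.6 and 12.1 CPM with the pair, 3.86, 4.12 and 4.72 CPM with IFNg and 0 counts in control (at least 267-fold higher with the pair), and Arg2, the mitochondrial one, had 63.1, 46.9 and 42.1 CPM with the pair, 0 counts with IFNg and 0, 1.41 and 0.363 CPM in control. The tryptophan-degrading enzyme gene Ido1 was at least 453-fold higher, and Kynu, further down that pathway, rose by 6.49 ± 0.39, while Kmo, the hydroxylase between them, fell by 2.73 on the log2 scale. Asl, which follows Ass1 in the recycling of citrulline, did not pass (0.28 ± 0.17; -0.19 under the RPKM totals). Of eicosanoid genes, Ptges, the inducible prostaglandin E synthase, rose by 7.81 ± 0.76, while Alox5, the first enzyme of leukotriene synthesis, fell to 0.307 ± 0.531 CPM, against 44.7 ± 8.47 CPM in control (-7.15 ± 0.82), and Ptgs1, the constitutive cyclooxygenase, fell to 1.24 ± 1.78 CPM, against 64.1 ± 5.27 CPM (-5.83 ± 0.59). Of the NADPH oxidase subunits, Cybb rose by 1.74 ± 0.13. Cyba and Ncf1 rose by 0.67 ± 0.16 and 0.41 ± 0.10, were not called under the RPKM totals, and Ncf1 turned in sign there (-0.07).

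Interferon signalling and its feedback inhibitors were higher at nearly every step measured: 21 of 23 genes rose and 1 fell. Irf1 (mm10 chr11:53770014-53778374), a transcription factor that IFNg induces, had 2009, 2253 and 1964 CPM with the pair, 1046, 1106 and 1114 CPM with IFNg alone and 89.7, 80.2 and 74.9 CPM in control, without overlap between the 3 groups. The inhibitors Socs3 (5.71 ± 0.29) and Cish (5.88 ± 0.45) were deepened, with Socs3 at 99.9, 10.2 and 1.9 CPM with the pair, with IFNg and in control. Socs1 had 1 count over the control libraries and 18.2, 9.2 and 25 CPM with the pair, a ratio of 902 (95% counting interval 161 to 35700). Jak2 rose by 2.99 ± 0.14. The ligand-binding receptor chain gene Ifngr1 was the member that fell, to 119 ± 17 CPM with the pair, against 332 ± 12.2 CPM in control (-1.49 ± 0.12, adjusted p = 3.01e-11), with 269 ± 13.8 CPM with IFNg alone. The other chain, Ifngr2, rose by 0.84 ± 0.10. Irf9 did not pass under TMM (0.18 ± 0.11) and was called lower under the RPKM totals (-0.29).

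Antiviral genes of the type I interferon response numbered 33 higher and 1 lower of 35, with 28 and 1 under the RPKM totals. Ifi205, a DNA-sensing family member, had 670.3, 927 and 861 CPM with the pair, 50.5, 59.5 and 72.7 CPM with IFNg alone and 4.29, 1.71 and 4.9 CPM in control, and Oasl1 rose to 1511 ± 129.6 CPM with the pair, against 44.2 ± 12.2 CPM in control (5.1 ± 0.18), with 126 ± 21.2 CPM with IFNg alone. Both genes stood at 3 separate levels. Rsad2 and Ifi44 rose by 3.51 ± 0.17 and 3.6 ± 0.14. The type I interferon gene Ifnb1 was itself detected with the pair at 0.222, 0.263 and 4.24 CPM, against 0 counts in control, and most of its counts came from the third library with the pair. Oas2 did not pass (0.08 ± 0.27; -0.40 under the RPKM totals), and Ifit3b fell by 0.77 on the log2 scale, although it shares sequence with Ifit3, which rose by 0.91 ± 0.27 and was not called under the RPKM totals (0.43).

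Antigen presentation genes were mostly higher than control with the pair. The median log2 fold change of the pair over IFNg was 0.13 for the class I list and -0.29 for the class II list. Of 19 genes of MHC class I and peptide loading 18 rose, with 5 deepened, 11 kept and 2 partly restored, or 2 deepened, 8 kept, 7 partly restored and 1 restored under the RPKM totals. The 2 deepened under both scalings were the class I heavy chain genes H2-K1 and H2-D1 (0.44 and 0.47 over IFNg under the RPKM totals). The transporter gene Tap1 was kept (1468, 1182 and 1403 CPM with the pair, 1100.2, 1134 and 1192 CPM with IFNg alone and 144, 166 and 225 CPM in control), and the class I regulator gene Nlrc5 was deepened (2.75 ± 0.18 over control, 0.69 ± 0.17 over IFNg), though not under the RPKM totals. Canx, a chaperone, did not pass under TMM (0.03 ± 0.14) and was called lower under the RPKM totals (-0.44). Of 12 MHC class II genes 10 rose, and 8 were kept and 3 partly restored, or 4 and 6 under the RPKM totals. Ciita (mm10 chr16:10480059-10528418), the transactivator of MHC class II genes, had 200.1, 179 and 211 CPM with the pair, 741, 709 and 798 CPM with IFNg alone and 43.5, 27 and 46 CPM in control. With the pair it lay between the other groups without overlap, 2.34 ± 0.14 above control and -1.93 ± 0.14 against IFNg (adjusted p = 4.96e-12). H2-Ab1, a class II chain, had 1679, 1640.0 and 1566 CPM with the pair, 1458, 1173 and 1508 CPM with IFNg alone and 103, 69.5 and 106 CPM in control. With the pair it lay above IFNg alone in every library under TMM, by a small margin that did not pass the test (0.24 ± 0.14, adjusted p = 0.16). Under the RPKM totals that difference had the other sign (-0.08). Cd74, the class II invariant chain, was kept at 9339.6 ± 771 CPM with the pair, against 706 ± 105 CPM in control, and was partly restored under the RPKM totals. Ctss, a protease of this pathway, did not pass against control under TMM (0.15 ± 0.13) and was called lower under the RPKM totals (-0.32).

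**Figure D3:**
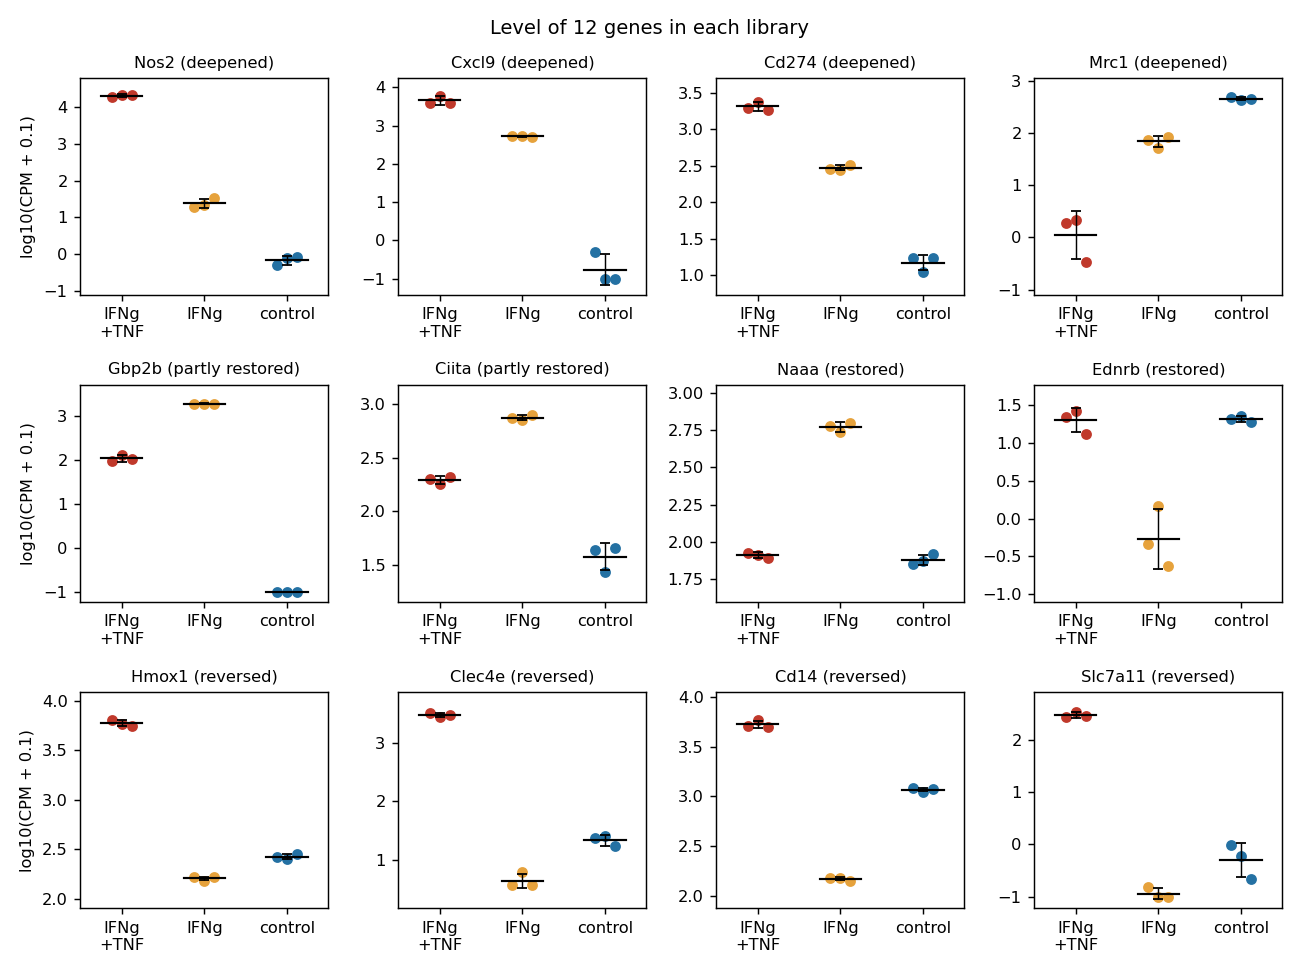
Level of 12 genes in each of the 9 libraries with the pair, with IFNg and in control (y axis, log10(CPM + 0.1); points are libraries, lines are the mean and bars 1 SD of 3), named by class. Nos2, Cxcl9 and Cd274 are highest and Mrc1 is lowest with the pair, Gbp2b and Ciita lie between, Naaa and Ednrb are back at the control level, and Hmox1, Clec4e, Cd14 and Slc7a11 lie above control after lying below it with IFNg.

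Costimulatory and inhibitory surface molecules counted 14 higher and 6 lower of 21. Cd274 (mm10 chr19:29367455-29388095), which encodes PD-L1, had 1987, 2403 and 1846 CPM with the pair, 289, 278 and 322 CPM with IFNg alone and 17.1, 11.1 and 17.1 CPM in control (7.1 ± 0.17 over control, adjusted p = 2.75e-22). The 3 groups were apart, with the pair 2.81 ± 0.14 above IFNg. The costimulatory gene Cd86 rose by 5.28 ± 0.15 and Cd80 by 1.72 ± 0.37. Tnfrsf9, a receptor of activated lymphocytes also called 4-1BB, was at 0 counts with IFNg and in control and at 14.7, 13.3 and 10.4 CPM with the pair (at least 229-fold higher). The PD-L2 gene Pdcd1lg2 had 2.5, 0.986 and 2.67 CPM with the pair and was kept from IFNg (at least 35.9-fold higher than control). Among those that fell, Vsir, which encodes the inhibitory ligand VISTA, stood at 75.2 ± 3.54 CPM with the pair, against 439 ± 14.2 CPM in control (-2.54 ± 0.12).

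NF-kappaB subunits, inhibitors and targets rose almost throughout. Of 27 genes 26 rose, and 20 of them had not been called with IFNg, which had raised 4 and lowered 2. The subunit genes rose to differing degrees: Relb by 2.29 ± 0.20, Nfkb2 by 2.13 ± 0.14, Rela by 1.45 ± 0.13, Rel by 0.54 ± 0.19 and Nfkb1 by 0.50 ± 0.10, the last 2 not called under the RPKM totals. The inhibitor gene Nfkbie had 311, 291 and 334 CPM with the pair, 10.8, 14.4 and 9.09 CPM with IFNg alone and 7.31, 12.6 and 18.9 CPM in control. With IFNg alone its libraries overlapped control, and with the pair every library lay above both groups (4.6 ± 0.30, adjusted p = 4.48e-11). Of the brakes on the pathway, Nfkbia rose by 2.76 ± 0.17 and Tnfaip3, the deubiquitinase A20, by 4.24 ± 0.15. The costimulatory receptor gene Cd40 (5.33 ± 0.20), the kinase gene Src (4.99 ± 0.38), the mitochondrial superoxide dismutase gene Sod2 (4.77 ± 0.15) and the adhesion gene Icam1 (4.06 ± 0.13) rose as well. Nfkbiz did not pass (0.41 ± 0.18, adjusted p = 0.0595; -0.06 under the RPKM totals). Under the RPKM totals 21 of 27 rose and 0 fell.

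TNF and the first steps of its signal were mixed, with 8 higher and 1 lower of 16 (7 and 4 under the RPKM totals, where the median log2 fold change was -0.05, against 0.43 under TMM). Tnf (mm10 chr17:35199381-35202007) had 206, 168 and 103 CPM with the pair, 29.4, 26.5 and 23.4 CPM with IFNg alone and 2.47, 4.28 and 2.97 CPM in control, so of the 3 groups the cells given TNF also held the most Tnf transcript (5.62 ± 0.26 over control, adjusted p = 7.46e-16). Receptor 1, Tnfrsf1a, rose by 1.78 ± 0.13, and receptor 2, Tnfrsf1b, had been lowered by IFNg and was reversed (837 CPM with the pair, 212 CPM with IFNg and 456 CPM in control). The necroptosis genes Mlkl and Ripk3 were deepened (2.58 ± 0.13 and 1.38 ± 0.12 over control). Tab2 (0.23 ± 0.16), an adaptor of the kinase TAK1, and Map3k14 (-0.38 ± 0.16), the kinase of the alternative NF-kappaB pathway, did not pass. Under the RPKM totals Tab2 turned in sign (-0.24) and Map3k14 was called lower (-0.85).

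Inflammatory cytokine genes counted 16 higher and 2 lower of 20, under both scalings, and 11 of them were new with the pair. Il1b (mm10 chr2:129364570-129371139), which encodes interleukin-1 beta, had 1865, 1554 and 1643 CPM with the pair, 1.36, 2.65 and 2.73 CPM with IFNg alone and 1.31, 4.16 and 1.15 CPM in control. The libraries with IFNg alone overlapped control, and those with the pair lay above both by a wide gap (9.6 ± 0.47 over control, adjusted p = 5.58e-11). Il1a, its relative, rose by 9.45 ± 0.71, and Il1rn, which encodes the antagonist of both, was deepened by 7.45 ± 0.32 to 801 ± 219.7 CPM. Il6 had 23.1, 12.8 and 16.9 CPM with the pair and Il12b 5.95, 10.2 and 5.57 CPM, both from 0 counts in control (at least 316-fold higher and at least 127-fold higher). Il10, the anti-inflammatory cytokine, fell to 0.194 ± 0.246 CPM, against 2.83 ± 0.439 CPM in control (-3.9 ± 1.01). Il18bp, which encodes the decoy of interleukin-18, was kept from IFNg at 672 ± 103 CPM (6.73 ± 0.19 over control). Ebi3 had been lowered by IFNg and lay at the threshold between restored and reversed (0.37 ± 0.16, adjusted p = 0.0504; -0.10 under the RPKM totals), being called above control with DESeq2, with the replicate block and without the first library with the pair. Tnfsf15 did not pass (0.82 ± 1.07).

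AP-1 and early-response genes counted 15 higher and 2 lower of 25. Dusp2 and Maff, with 0 counts in control, were at least 45.9-fold higher and at least 19.9-fold higher. Fosl1 rose by 4.84 ± 1.48 and the phosphatase gene Dusp5 by 4.57 ± 0.67, at low levels of 6.48 ± 0.721 and 21.4 ± 5.11 CPM with the pair. Jund (0.42 ± 0.40) and Klf3 (0.32 ± 0.18) did not pass, and their signs turned under the RPKM totals (-0.05 and -0.15). Dusp4, a nuclear MAP kinase phosphatase, and Egr2, a factor of alternatively activated macrophages, were lowered by IFNg and restored with the pair, Dusp4 with 11.8, 9.4 and 17 CPM with the pair, 0.417, 0.177 and 0.137 CPM with IFNg alone and 5.35, 6.85 and 11.7 CPM in control. Egr2 was restored only in the sense of a missed threshold, with 3.76 CPM with the pair, 11.6 CPM in control and a 95% interval of -3.07 to -0.16, and it was partly restored under the RPKM totals.

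Genes that hypoxia-inducible factors are known to drive rose in these cultures, which the labels do not call hypoxic. Of 26 such genes outside glycolysis 18 rose and 1 fell, or 18 and 4 under the RPKM totals. Hif1a, the oxygen-regulated subunit, was deepened to 1669.7 ± 186 CPM, against 119.8 ± 9.17 CPM in control (3.8 ± 0.12). The lipid droplet gene Hilpda (5.85 ± 0.62), the collagen hydroxylase gene P4ha2 (5.44 ± 0.45), the oxygen-sensor gene Egln3 (5.3 ± 0.70) and Vegfa (4.5 ± 0.24) rose, and the peptide hormone gene Adm was at least 110-fold higher. None of these 5 was called with IFNg alone. Arnt and Plod1 did not pass under TMM (0.09 ± 0.14 and 0.18 ± 0.12), and both were called lower under the RPKM totals (-0.39 and -0.29).

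Glucose uptake and glycolysis genes rose with them, 16 of 19 higher and 1 lower, with a median of 2.40. The glucose transporter gene Slc2a1 had 1198, 1123 and 1106 CPM with the pair, 70, 70.5 and 73.6 CPM with IFNg alone and 18.2, 26.7 and 24.8 CPM in control, at 3 separate levels (5.62 ± 0.17 over control, adjusted p = 4.5e-20). The lactate exporter gene Slc16a3 (4.68 ± 0.19), the hexokinase gene Hk2 (4.13 ± 0.14) and Pfkfb3 (4.25 ± 0.18), which makes an activator of glycolysis, were deepened. Pfkm, the muscle-type phosphofructokinase, ran the other way: IFNg raised it and with the pair it was at 25.5 ± 3.88 CPM, against 30.3 ± 4.79 CPM in control (-0.24 ± 0.19), restored under TMM and reversed under the RPKM totals. Gapdh, Pgam1, Pgk1 and Mif, which have many near-identical copies in the genome, were listed at or near 0 counts and their values are uncertain.

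Reversed genes gathered in the list of antioxidant, heme and iron genes, many of them targets of the transcription factor Nrf2. IFNg alone had lowered 19 of 30 and raised 1, while with the pair 22 were higher and 4 lower than control, or 18 and 4 under the RPKM totals. In all 13 were reversed (a class of 2.46% of all tested genes), 11 of them under both scalings, 9 were called with the pair and not with IFNg, 3 were deepened, 3 restored and 1 kept. Hmox1 (mm10 chr8:75093621-75100589), which breaks down heme, had 6451, 5888 and 5569.9 CPM with the pair, 164, 152 and 164 CPM with IFNg alone and 264, 253 and 280.4 CPM in control. Every library with IFNg alone lay below every control library, and every library with the pair lay above (-0.73 ± 0.14 for IFNg and 4.49 ± 0.16 for the pair over control). Slc7a11 (mm10 chr3:49892526-50443614), which imports cystine for glutathione, had 274, 345 and 292 CPM with the pair, 0.0521, 0 and 0 CPM with IFNg alone and 0.858, 0.489 and 0.121 CPM in control (9.2 ± 0.39 over control, adjusted p = 6.34e-15). Its level without TNF was near the floor, with 1 count over the 3 IFNg libraries.

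The same pattern held for the peroxiredoxin gene Prdx1, with 6688, 6137 and 6249 CPM with the pair, 304, 251 and 327 CPM with IFNg alone and 443, 398 and 399 CPM in control, and for Srxn1, which reactivates peroxiredoxins and rose by 3.65 ± 0.30 over control after IFNg had lowered it (-1.02 ± 0.30). Both glutathione-synthesis subunit genes, Gclm (3.51 ± 0.23) and Gclc (1.86 ± 0.24), the reductase genes Txnrd1 (3.02 ± 0.14) and Gsr (2.96 ± 0.18), Fth1 (1.93 ± 0.16) and the catalase gene Cat (0.88 ± 0.11) were reversed too. Nfe2l2, which encodes Nrf2 itself, was reversed under TMM (0.61 ± 0.10) and restored under the RPKM totals (0.14). Not all members followed. Nqo1, a quinone reductase and a common marker of Nrf2, stood at 30.4, 32 and 22.9 CPM with the pair, against 9.43, 16.1 and 15.6 CPM in control, and was not called although these groups did not overlap (1.06 ± 0.57, adjusted p = 0.135). Ftl1, the light chain of ferritin, and the metallothionein gene Mt1 were restored (0.19 ± 0.17 and 0.63 ± 0.45), Ftl1 with the other sign under the RPKM totals (-0.28). Gpx1 and Blvra were deepened downward, and Sod1 fell to 56.7 ± 17 CPM, against 148 ± 31.6 CPM in control (-1.38 ± 0.23). The heme oxygenase that is not inducible, Hmox2, fell by 0.90 on the log2 scale.

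The start regions of 2 reversed genes of this list, Gclm at chr3:122245307-122245606, plus strand and Srxn1 at chr2:152105274-152105573, plus strand, are shown over the same window, with capitals for the antioxidant response element TGACNNNGC, the AP-1 site TGANTCA and the hypoxia response element ACGTG, on either strand. They too were chosen after their motifs had been seen.
Gclm: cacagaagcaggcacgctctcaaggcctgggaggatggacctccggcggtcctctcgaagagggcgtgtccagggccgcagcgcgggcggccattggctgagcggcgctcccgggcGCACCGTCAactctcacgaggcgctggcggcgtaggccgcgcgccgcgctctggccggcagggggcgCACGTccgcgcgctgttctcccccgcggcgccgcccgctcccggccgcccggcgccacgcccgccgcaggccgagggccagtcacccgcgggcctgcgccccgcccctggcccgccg
Srxn1: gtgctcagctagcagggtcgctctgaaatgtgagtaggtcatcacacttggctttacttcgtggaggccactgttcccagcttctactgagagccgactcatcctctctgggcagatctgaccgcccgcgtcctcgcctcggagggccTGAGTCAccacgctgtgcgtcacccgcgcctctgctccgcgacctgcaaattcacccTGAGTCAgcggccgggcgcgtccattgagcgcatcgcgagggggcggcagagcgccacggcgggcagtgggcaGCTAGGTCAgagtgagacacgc
Gclm holds an antioxidant response element at base 117 and a hypoxia response element at 184 of the window. Srxn1 holds AP-1 sites at 149 and 206 and an antioxidant response element at 279. The antioxidant response element occurred in 11 of 25 genes of the list with a window (44%), in 26.83% of reversed genes that IFNg had lowered, in 17.01% of tested genes and in 12.39% of all windows. In the list, in those reversed genes and in tested genes, the hypoxia response element occurred in 28%, 31.71% and 29.38%. The AP-1 site occurred in 12%, 5.69% and 6.37%.

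Receptors that sense microbes fell into several classes. The C-type lectins Clec4e and Clec4d and the LPS co-receptor gene Cd14 were reversed upward, while Clec4a2 fell by 3.05 on the log2 scale. Clec4e (mm10 chr6:123281789-123289870), which encodes Mincle, had 3230.0, 2716 and 2922 CPM with the pair, 3.7, 6.06 and 3.69 CPM with IFNg alone and 24, 25.2 and 16.9 CPM in control, and its neighbour Clec4d rose by 1.47 ± 0.13 over control after a fall with IFNg (-4.16 ± 0.15). Clec4n, next to them, rose by 6.79 ± 0.47, and its fall with IFNg (-1.58 ± 0.53) was not called with DESeq2, without a filter, with the replicate block or without some single libraries. Cd14 had 5049, 5877 and 5037 CPM with the pair, 150.3, 151 and 142 CPM with IFNg alone and 1215, 1118 and 1179 CPM in control. In Clec4e and Cd14 the libraries with IFNg alone lay below all control libraries and those with the pair above (adjusted p = 2.45e-17 and adjusted p = 1.11e-13 against control). Nod1 and Nod2, cytosolic sensors of peptidoglycan, were deepened to 428 and 174 CPM, against 28.2 and 15.8 CPM in control.

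Toll-like receptors did not move as a family. Tlr3 (1.2 ± 0.19) and Tlr6 (1.58 ± 0.16) rose over control, and Tlr4 (-0.61 ± 0.15) and Tlr5 (-1.33 ± 0.43) fell. Tlr9, which senses bacterial DNA, had 202, 351 and 271 CPM with the pair, 934, 1104 and 1251 CPM with IFNg alone and 263, 236 and 289.5 CPM in control, and the libraries with the pair overlapped control (0.06 ± 0.21, 95% interval -0.38 to 0.50; -0.41 under the RPKM totals). Tlr1 and Tlr2 were restored, the first after a rise and the second after a fall with IFNg (0.08 ± 0.15 and 0.18 ± 0.12 against control with the pair), and both were called lower under the RPKM totals (-0.40 and -0.29). Tlr12 and Tlr11, which sense a parasite protein in mice, were partly restored, Tlr12 to 15.3 ± 2.42 CPM with the pair, 203 ± 20.1 CPM with IFNg and 0.161 ± 0.28 CPM in control. Tlr11 was restored under the RPKM totals, and its call against control was lost without the second or the third library with the pair (adjusted p = 0.102 and 0.134) or the second control library (0.0651). The RNA sensors Tlr7 and Tlr8 fell (-2.14 ± 0.20 and -2.21 ± 0.19), and Ly86, a partner of the receptor Cd180, was raised by IFNg and reversed to 51.5 ± 8.99 CPM, against 167 ± 22.6 CPM in control (-1.69 ± 0.12). Clec12a and Tlr13 were not called under TMM (-0.29 ± 0.12 and -0.20 ± 0.14) and were called lower under the RPKM totals (-0.76 and -0.68). Over the list of 25 genes, 11 rose and 6 fell, and under the RPKM totals 9 rose and 11 fell. The share that fell under TMM was near that of all tested genes (24.2%). Under the RPKM totals 4824 of all 11563 tested genes fell.

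Among all restored genes that IFNg raised, those of the largest rise and return were Naaa, Slamf9, Myh10, Nrg2, Arhgef10 and Slc4a8. Slamf9, a surface receptor of the SLAM family, had 42.1, 67.4 and 72.6 CPM with the pair, 394, 421 and 468 CPM with IFNg alone and 49.8, 51.3 and 56.4 CPM in control, and was not called against control (0.21 ± 0.15, adjusted p = 0.284) under either scaling, with -0.27 under the RPKM totals. Naaa, a lysosomal hydrolase of lipid amides, had 85, 81.8 and 77.9 CPM with the pair, 595, 546 and 631 CPM with IFNg alone and 71.6, 74.2 and 82.8 CPM in control (0.10 ± 0.11 against control, 95% interval -0.12 to 0.32). Under the RPKM totals Naaa was called lower than control (-0.37) and so counted as reversed, as did Nrg2 (-1.22). Myh10, a non-muscle myosin heavy chain, was at 0.539 CPM with the pair, 39.5 CPM with IFNg and 1.04 CPM in control.

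Complement C1q, made by resident macrophages, had been raised by IFNg in all 3 chains. With the pair C1qa and C1qb were back at 346 ± 34.5 and 1535 ± 246 CPM, against 398 ± 61.4 and 1676 ± 297 CPM in control and 1300.3 and 4605 CPM with IFNg alone, and C1qc was reversed to 677 ± 69.2 CPM, against 977 ± 178 CPM in control (-0.53 ± 0.13). C1qa and C1qb were reversed as well under the RPKM totals (-0.67 and -0.60). The activating Fc receptor genes Fcgr1, Fcgr3 and Fcgr4 were raised by IFNg and partly restored, Fcgr3 restored under the RPKM totals. Fcgr4 had 518, 623 and 620.4 CPM with the pair, 1760.2, 1768 and 1899 CPM with IFNg alone and 91.8, 69.2 and 89.1 CPM in control, again with the pair between the other groups.

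Among restored genes that IFNg lowered were Ednrb, Gab1, Fam20c, Dusp4, Ms4a4a and Egr2. Ednrb, an endothelin receptor, had 22.3, 26.9 and 13.3 CPM with the pair, 0.365, 1.35 and 0.137 CPM with IFNg alone and 21, 23 and 18.8 CPM in control. The libraries with the pair spanned those of control (-0.01 ± 0.52, adjusted p = 0.995), with a 95% interval of -1.1 to 1.08. Fam20c, a kinase of secreted proteins, had 104, 114 and 112 CPM with the pair, 7.71, 13.1 and 7.25 CPM with IFNg alone and 71.7, 85.5 and 111 CPM in control and was also restored under both scalings (0.30 ± 0.26), as was the adaptor gene Gab1 (0.19 ± 0.49). Under the RPKM totals their differences from control were -0.16 and -0.28, and Ms4a4a was called lower (-1.31). Csf1r was lowered by IFNg to 4676 ± 422 CPM and was not called against control with the pair (0.08 ± 0.11), although under the RPKM totals it was (-0.39, partly restored). Ms4a4a moved likewise (-0.83 ± 0.41 and -1.31).

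Partly restored genes that IFNg raised included Sectm1a, with 2.5, 5.52 and 5.1 CPM with the pair, 68, 56.5 and 60.8 CPM with IFNg alone and 0 counts in control, and Tmtc4 and Tnik, whose levels with the pair were 7.37 and 3.92 CPM, against 3.13 and 0.521 CPM in control. Clec9a, a receptor for dead cells better known from dendritic cells, was at 13.2 ± 0.787 CPM with the pair, 83.9 ± 2.84 CPM with IFNg and 0.244 ± 0.423 CPM in control. Those that IFNg lowered included S1pr1, a receptor for sphingosine-1-phosphate, with 20.2, 26.8 and 31.9 CPM with the pair, 2.71, 1.06 and 3.21 CPM with IFNg alone and 89.6, 101 and 77.7 CPM in control, at 3 separate levels (-1.76 ± 0.26 over control). Mmp12, the macrophage elastase, had 144, 94.3 and 108 CPM with the pair, 5.94, 6.65 and 6.43 CPM with IFNg alone and 184, 214 and 203 CPM in control. Slc6a12, Vwf and Ctsk were likewise between, Lhfpl2 as well, and some of these calls against control rested on single libraries. Without the first library with the pair the adjusted p was 0.085 for Ctsk, 0.083 for Lhfpl2 and 0.0866 for Tnik, and without the third control library it was 0.153 for Lhfpl2 and 0.0543 for Tnik. Lhfpl2 also lost its call without the second control library or either other library with the pair (0.0648 to 0.0968).

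Among the other reversed genes were a proteoglycan, integrin and adaptor gene. Of those that IFNg lowered, Sdc1, which encodes the proteoglycan syndecan-1, had 268, 204 and 305 CPM with the pair, 2.87, 1.71 and 4.1 CPM with IFNg alone and 44.7, 35.9 and 76.4 CPM in control (2.31 ± 0.33 over control), and the integrin gene Itgb8 had 43.3, 41.5 and 23.6 CPM with the pair, 0 counts with IFNg and 0.605, 0.611 and 0.303 CPM in control. The control level of Itgb8 was low, since 3 counts equal 0.151 to 0.183 CPM in those libraries, so its fall with IFNg rests on few reads. Stac2 was reversed under TMM (0.86 ± 0.34) and restored under the RPKM totals. Of those that IFNg raised, Grap2, an adaptor of T cell signalling, had 1.5, 0.789 and 1.26 CPM with the pair, 22.7, 19 and 18.5 CPM with IFNg alone and 3.78, 5.93 and 6.6 CPM in control, and Dpy19l1, a glycosyltransferase, had 18.2, 17.1 and 25.6 CPM with the pair, 161, 171 and 164 CPM with IFNg alone and 36.2, 41.4 and 33.9 CPM in control. In both genes the pair lay below control in every library (-2.19 ± 0.37 and -0.88 ± 0.14). Efr3b, Ctse, Pkib and Sdf2l1 were the other leading members, and the calls of Ctse, Pkib and Sdf2l1 against control each rested on single libraries. Without the third control library the adjusted p was 0.146 for Ctse and 0.104 for Sdf2l1. Without the first control library it was 0.243 for Pkib, whose log2 fold change was then -0.36, and without the third library with the pair 0.0687. Sdf2l1 also lost its call without the first or second library with the pair or the second control library (0.0531 to 0.121), and Stac2 without any 1 of the same libraries (0.0606 to 0.143).

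Genes of alternatively activated and resident macrophages were lower with the pair: of 26, 4 rose and 17 fell (background 24.2% lower), with a median of -1.77. Besides Mrc1, the hemoglobin scavenger receptor gene Cd163 had 0, 0.592 and 0.392 CPM with the pair, against 59.1, 55.9 and 48.4 CPM in control (-7.42 ± 0.62), and Gas6, which bridges dying cells to phagocytes, stood at 10.6 ± 2.45 CPM, against 474 ± 38.2 CPM (-5.48 ± 0.21). Clec10a fell by 5.42 on the log2 scale and Trem2, a lipid-sensing receptor, by 3.3. Mertk, the Gas6 receptor, went against the list with 465, 458 and 369 CPM with the pair, 78.4, 77.2 and 73.7 CPM with IFNg alone and 58, 49.3 and 54.1 CPM in control, a rise of 3.0 ± 0.12 over control (adjusted p = 2.1e-17). Tyrobp, the adaptor of Trem2, did not pass (-0.35 ± 0.19) and was called lower under the RPKM totals (-0.82). Of lineage genes 7 rose and 7 fell of 20, and 5 rose and 12 fell under the RPKM totals. All tested genes gave 25.7% higher and 24.2% lower under TMM and 1828 and 4824 of 11563 under the RPKM totals. Spi1, which encodes the macrophage factor PU.1, was at 493 ± 31.8 CPM with the pair and 461 ± 41 CPM in control (0.10 ± 0.11, adjusted p = 0.495) and was called lower under the RPKM totals (-0.37), while Cebpb rose by 2.43 ± 0.61 and Cebpa fell by 2.85.

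Cholesterol synthesis genes counted 2 higher and 15 lower of 22. Cyp51 stood at 6.4 ± 1.77 CPM with the pair, against 49.2 ± 8.43 CPM in control. Cyp51 and Stard4 fell by 2.93 and 2.84 on the log2 scale. Dhcr7, the last enzyme of the pathway, was not called with IFNg alone and fell with the pair (-2.39 ± 0.22). Of 27 lipid-handling genes 14 rose and 7 fell, or 11 and 11 under the RPKM totals. Acsl1, which activates fatty acids, had 4046, 5019 and 4366 CPM with the pair, 172, 203 and 225 CPM with IFNg alone and 54.3, 51.2 and 49.9 CPM in control (6.43 ± 0.15 over control), and Ch25h, which makes 25-hydroxycholesterol, rose by 5.81 ± 0.29. Pparg, the lipid-sensing nuclear receptor, fell to 7.38 ± 4.57 CPM, against 83.2 ± 10.9 CPM (-3.52 ± 0.34), and Apoe fell by 2.58. Abcg1, a cholesterol exporter, was restored (0.13 ± 0.13) and under the RPKM totals reversed (-0.34).

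DNA replication and mitosis genes fell in 30 of 38 cases and rose in 4, with a median of -3.66. The proliferation marker Mki67 had 36.3, 44.8 and 27.1 CPM with the pair, 338, 378 and 253 CPM with IFNg alone and 908, 1058 and 639.7 CPM in control (-4.59 ± 0.24), and Ccnb2, Cenpf, Cdc20 and Birc5, which act in mitosis, fell by 7.01, 6.7, 6.55 and 7.38 on the log2 scale. The replication genes Mcm2, Mcm3 and Mcm6 also fell (-3.16 ± 0.38, -2.0 ± 0.17 and -2.3 ± 0.15). The inhibitor gene Cdkn1a, which encodes p21, rose by 2.82 ± 0.47, and the G1 cyclin gene Ccne1 by 3.21 ± 0.28. Marker sets of other cells fell beside them. Neutrophil precursor markers were lower in 9 of 11 tested genes, with Elane at 0 counts with the pair, and their summed level was 13.0 to 18.05 CPM with the pair, 111.4 to 132.9 CPM with IFNg and 112.3 to 169.9 CPM in control. The B cell marker Ighm stood at 7.11, 11.7 and 9.11 CPM with the pair, against 745, 604 and 568 CPM in control, with 530.5, 499.5 and 572 CPM with IFNg alone, while Cd79a, Ms4a1 and Pax5 were at 0. The part of these cells in the fall of replication and mitosis genes was not tested.

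**Figure D4:**
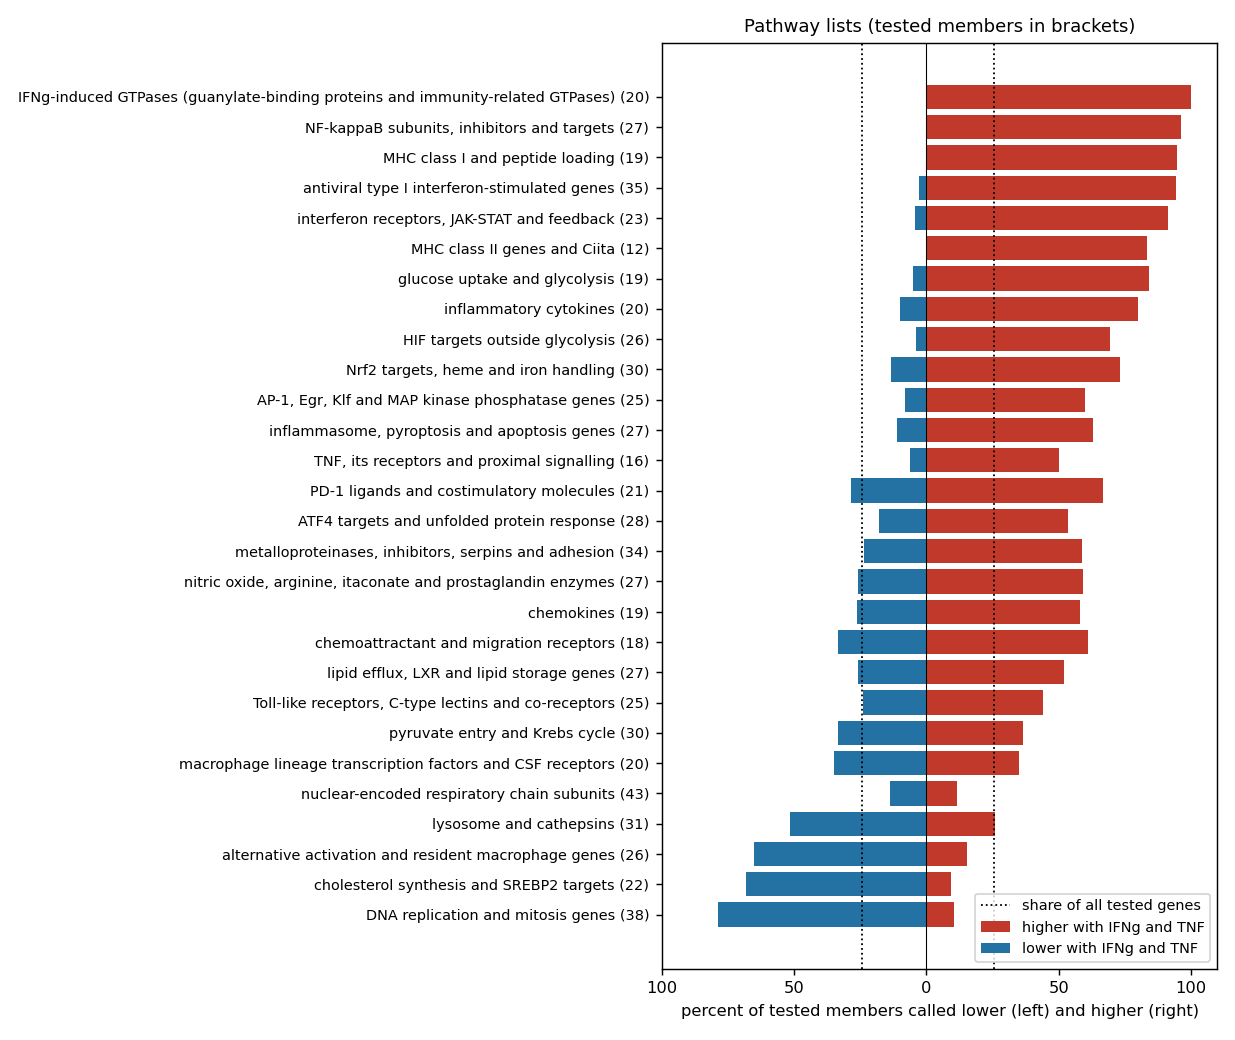
Share of the tested members of 28 pathway lists that were called higher (right) or lower (left) with the pair than in control (x axis, percent; y axis, the lists with their number of tested members), with dotted lines at the shares of all tested genes. All 20 GTPase genes were higher, and 30 of 38 replication and mitosis genes were lower.

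Genes of mitochondrial metabolism gave balances that depended on scaling. Of all 11563 tested genes 25.7% were higher and 24.2% lower under TMM, and 1828 were higher and 4824 lower under the RPKM totals. Of 30 genes of pyruvate entry and the Krebs cycle, 11 rose and 10 fell under TMM and 4 rose and 15 fell under the RPKM totals, and the median log2 fold change was -0.27 under the RPKM totals and 0.20 under TMM. Some members stood out under both. Idh1, which makes NADPH in the cytosol, had 44.7, 59.4 and 46.7 CPM with the pair, 109, 87.8 and 92.9 CPM with IFNg alone and 689.7, 600.0 and 622 CPM in control, and Idh2, its mitochondrial relative, fell to 7.73 ± 1.72 CPM, against 58.7 ± 10.1 CPM in control. The fumarase gene Fh1 fell by 1.84 on the log2 scale, while the pyruvate carboxylase gene Pcx and the kinase gene Pdk3 rose by 2.43 ± 0.28 and 2.24 ± 0.21. Respiratory chain subunits were 5 higher and 6 lower of 43, under the background shares of 25.7% and 24.2%, and 0 higher and 21 lower under the RPKM totals. Of the called members Ndufs8 had the largest fall (-0.76 ± 0.15). Cox4i1 (-0.24 ± 0.13) and Atp5a1 (-0.03 ± 0.10) did not pass under TMM and were called lower under the RPKM totals (-0.71 and -0.50).

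The stress, death and lysosome lists also shifted with scaling. Of the amino-acid stress genes that Atf4 is known to drive, Trib3 rose by 3.7 ± 0.29, the transporter chain gene Slc3a2 by 2.88 ± 0.11, Asns by 2.38 ± 0.27 and Atf4 itself by 1.91 ± 0.12. Shmt2, a mitochondrial enzyme of serine metabolism, fell by 1.47, and the serine-synthesis genes Psat1, Phgdh and Psph did not pass under TMM (0.47 ± 0.21, -1.0 ± 1.61 and -0.60 ± 0.42). Under the RPKM totals Psph was called lower (-1.07) and Psat1 stood at -0.01. Chaperones of the endoplasmic reticulum, which IFNg had raised, were lower with the pair than with IFNg: Hspa5 and Manf were partly restored (restored under the RPKM totals) and Pdia6 (174, 202 and 139 CPM with the pair, 490.4, 428 and 442 CPM with IFNg alone and 177, 143 and 169.9 CPM in control) and Hsp90b1 restored (0.07 ± 0.14 and 0.16 ± 0.11 against control), the last 2 being reversed under the RPKM totals (-0.40 and -0.31). The whole list of 28 had 15 higher and 5 lower, or 10 and 9 under the RPKM totals. Of 27 inflammasome and death genes 17 rose and 3 fell, or 15 and 6 under the RPKM totals. Nlrp3, the inflammasome sensor, was deepened to 661 ± 34.7 CPM, against 94.9 ± 6.06 CPM in control (2.8 ± 0.11), and the membrane-rupture gene Ninj1 and the death receptor gene Fas rose by 2.31 ± 0.26 and 3.16 ± 0.21, while the adaptor gene Pycard was raised by IFNg and reversed (-1.41 ± 0.19). Bax did not pass (0.22 ± 0.20; -0.26 under the RPKM totals).

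Lysosome genes were 8 higher and 16 lower of 31, or 4 and 21 under the RPKM totals. The share higher under TMM was near that of all tested genes (25.7%), while 24.2% of all genes were lower. Under the RPKM totals 4824 of all 11563 tested genes were lower. Ctsc, the protease that activates serine proteases of granules, ran against the list, with 9979, 11763 and 11244 CPM with the pair, 4485, 4619.7 and 4560.2 CPM with IFNg alone and 415, 351 and 399.5 CPM in control (4.82 ± 0.12 over control). The proton pump subunit genes Atp6v0d2 and Atp6v0a1 fell by 3.51 and 2.38 on the log2 scale, and Ctsb (-0.24 ± 0.11) and Lamp1 (-0.27 ± 0.12) did not pass under TMM and were called lower under the RPKM totals (-0.71 and -0.74). Proteases, inhibitors and adhesion genes counted 20 higher and 8 lower of 34. The membrane-anchored matrix protease gene Mmp14 rose to 266 ± 34.9 CPM with the pair, against 1.1 ± 0.885 CPM in control (7.92 ± 0.41), Serpina3g rose by 9.46 ± 0.18 and Serpinb2 was at least 96.7-fold higher. Osteopontin, Spp1, fell to 265 ± 32.5 CPM, against 3118 ± 458 CPM (-3.56 ± 0.15). Itgb7 had been raised by IFNg and lay at the threshold between restored and partly restored (0.36 ± 0.15, adjusted p = 0.0506, and -0.11 under the RPKM totals). It was called above control with DESeq2, without a filter, with the replicate block and without some single libraries.

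Marker lists of other cells held a few called genes besides the neutrophil and B cell markers. Of dendritic cell markers 3 of 5 rose, Clec9a, Xcr1 and Zbtb46, the last 2 under 2 CPM with the pair and at 0 counts in control, with a summed level of the list of 16.95 to 18.34 CPM with the pair and 2.384 to 4.419 CPM in control. Klrk1, an activating receptor of NK cells, rose to 19.9 ± 1.72 CPM, against 0.625 ± 0.996 CPM (5.04 ± 0.51), and was partly restored, with the 5 other NK cell markers at 0 counts. Of endothelial markers Kdr and Pecam1 rose, of fibroblast markers Dcn did, and of T cell markers Il7r rose and Cd4 fell, the last with an adjusted p of 0.059 to 0.0794 without the first or the third library with the pair or the first or second control library (under the RPKM totals Il7r was not called and 1 fibroblast marker was called lower). Of mast cell markers the tested Kit and Prss34 were not called by edgeR (adjusted p = 0.0534 and adjusted p = 0.121), nor of megakaryocyte markers Itga2b and Pf4 (adjusted p = 0.544 and adjusted p = 0.968), and no erythroid marker had counts enough to be tested. Of the 10 macrophage markers 4 rose and 3 fell under TMM, and 4 rose and 5 fell under the RPKM totals.

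Whether the state with the pair was reached with other additions to IFNg was compared directly. Against control, 4261 genes (36.9%) were called with IFNg and LPS, 4642 (40.1%) with IFNg and hypoxia and 3089 (26.7%) with IFNg and IL1b, in fits that share the control libraries. The pair differed from IFNg with LPS in 2926 genes (25.3%), from IFNg with hypoxia in 4514 (39%) and from IFNg with IL1b in 4860 (42%). Of the 162 genes that IFNg lowered and the pair reversed, 140 were higher with TNF than with LPS (13.1% of all genes), 142 than with hypoxia (18.9%) and 162 than with IL1b (20.9%). Of the 122 that it raised and the pair reversed, 112 were lower with TNF than with LPS (12.2%), 114 than with hypoxia (20.1%) and 122 than with IL1b (21.1%). Of the 231 restored genes that IFNg raised, 112 were lower with TNF than with LPS and 199 than with IL1b, and of the 228 that it lowered, 97 and 184 were higher. Of the 532 deepened rises 331 were higher with TNF than with LPS and 4 lower, and against IL1b 485 and 0. Since members of the classes were chosen by the libraries with the pair, these counts describe the classes and do not test them.

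**Figure D5:**
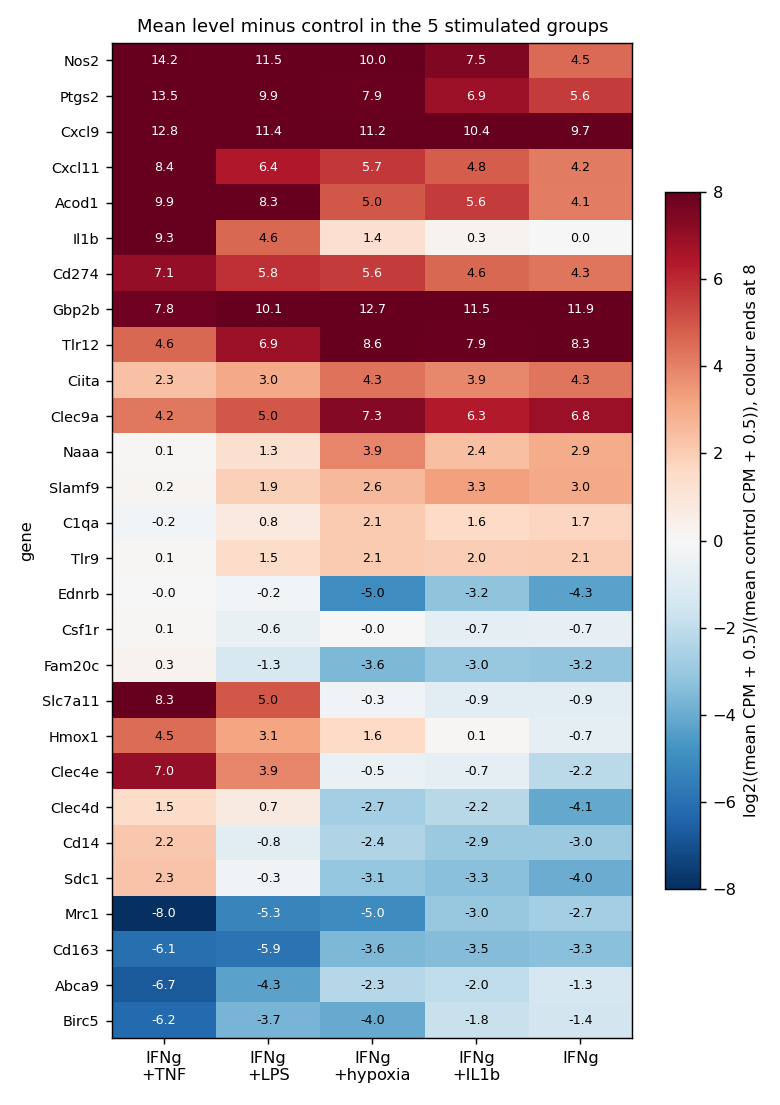
Difference in mean level from control, as log2 of (mean CPM + 0.5) over (mean control CPM + 0.5), of 28 genes (rows) with IFNg and TNF, LPS, hypoxia or IL1b and with IFNg alone (columns); the colour ends at 8 and the printed value does not. Nos2, Ptgs2 and Il1b were highest with TNF and next with LPS, Slc7a11 and Clec4e lay above control with TNF and with LPS and below it with hypoxia and IL1b, and Gbp2b was lowest with TNF among the 5 stimulated groups.

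For several effectors and reversed genes TNF stood above LPS. Nos2 had 18055, 21073 and 21178 CPM with TNF, 3040.2, 3539.5 and 2694 CPM with LPS, 1287, 970.0 and 1209 CPM with hypoxia and 129, 214 and 249.9 CPM with IL1b, and TNF stood above LPS by 2.7 ± 0.22 (adjusted p = 1.87e-08). Il1b with TNF stood above LPS by 4.7 ± 0.36, Hmox1 by 1.35 ± 0.14 and Slc7a11 by 3.29 ± 0.27. Cd14 separated them in sign: it had 5049, 5877 and 5037 CPM with TNF, above control, and 766, 638 and 556 CPM with LPS, below it. Gbp2b with TNF stood -2.32 ± 0.16 against LPS and -4.95 ± 0.18 against hypoxia, the lowest of the 5 stimulated groups. Ednrb did not differ by the test between TNF and LPS (0.20 ± 0.52, 95% interval -0.89 to 1.29, adjusted p = 0.828), at 13.1, 24.3 and 16.9 CPM with LPS, while with hypoxia it stayed at 0.53, 0 and 0 CPM.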

How the data were processed

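RNA from mouse bone-marrow-derived macrophages was sequenced as single-end reads of 50 bases from stranded mRNA libraries made with 100 ng of total RNA, per the labels' protocols. Each of the 18 libraries has 1 table of 22598 genes. GSNAP and mm10 are named as aligner and build in the submitters' processing notes. The way reads were counted, including strand, is not stated in the labels, headers or notes. The deposited counts are whole numbers per gene and were used as they are. The deposited RPKM values equal the count divided by the deposited gene width and by a library total, and were used for ranks of genes within a library and, through those totals, as another scaling. Of the widths 86.7% are multiples of 3, so they are mostly coding lengths. Symbols and coordinates of 22457 genes came from the GENCODE M21 annotation of the same build, and 141 IDs had none.

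Groups were taken from the titles. Counts were filtered with filterByExpr, which left 11563 genes, scaled by TMM, and fitted with edgeR 4.0.16 (glmQLFit with robust estimation, limma 3.58.1, R 4.3.3) in 1 model with a mean for each of the 6 groups, so that all 18 libraries share the estimate of spread. CPM divide a count by the library's counts in tested genes times its TMM factor. Quasi-likelihood F tests were adjusted by Benjamini-Hochberg over all tested genes and called at 0.05. Totals of 12270565 to 20952799 counts per library put 3 counts at 0.151 to 0.255 CPM, which covers counting error only. The 3 contrasts used for the classes share libraries, so class counts carry no p. The procedure was tested on simulated data.

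Genes named were the 15 largest rises and falls without overlap of the groups, 6 leading genes of each class and direction, the 4 largest called and 2 most abundant uncalled members of each list, and 12 fixed genes, the first sets with at least 10 CPM in the highest group. Some genes under this rule are not reported here. Further list members named were chosen after their values were seen. The members and lists were chosen with earlier results of these data known. Promoter windows are RefSeq sequences of GRCm38.p6, and 9181 of the tested genes had one. Alternatives were DESeq2 1.42.0, DESeq2 size factors, the RPKM totals, no filter, the 3 groups alone, a replicate block, a threshold of 0.01 and leaving out each of 9 libraries.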

Additional observations from a re-analysis of the deposited data

How the results depend on the processing

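Leaving out each library of the 3 groups in turn gave 5280 to 5732 called genes, 2735 to 2962 higher and 2487 to 2770 lower. The classes then held 706 to 905 deepened, 346 to 463 restored, 134 to 163 partly restored, 223 to 281 reversed and 758 to 1046 kept changes, and 3207 to 3922 genes were called with the pair and not with IFNg. Every one of these counts was within 1.5 times its value with all libraries. DESeq2 called 5931 genes, edgeR with DESeq2 size factors 5771, no filter 5631, a fit on the 3 groups alone 5492 and an adjusted p under 0.01 4573. At 0.01 the partly restored changes numbered 102 and the reversed 166. Scaling to the RPKM totals gave 1828 genes higher and 4824 lower, a shift in every gene's log2 fold change, since the scaling moves all genes of a library together. Of 2727 classes 1638 were the same there, and of 247 named genes 199. Under that scaling the difference of the pair minus control turned to -0.34 for Abcg1, -0.39 for Arnt, -0.44 for Canx, -0.39 for Csf1r, -0.32 for Ctss, -0.27 for Dld, -0.31 for Hsp90b1, -0.29 for Irf9, -0.37 for Naaa, -0.35 for Ncf4, -0.4 for Pdia6, -0.29 for Plod1 and -0.41 for Zeb2.

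With the replicate block 5876 genes were called, 3001 higher and 2875 lower, and 996 changes were deepened, 476 restored, 186 partly restored, 323 reversed and 936 kept. Correlations of deviations from the group means, with no block removed, were small. For libraries of equal number they were -0.035 to 0.041 between the pair and control and 0.01 to 0.116 between the pair and IFNg. Libraries of other numbers reached 0.111 and 0.06 there. Between IFNg and control they were 0.054 to 0.071 for equal numbers and at most -0.018 for others. Calls of Tlr11, Sdf2l1, Stac2, Lhfpl2, Ctse, Tnik, Pkib, Ctsk, Cox7b, Cox7a2, Cebpd, Cd4 and Aldh1l2 against control were lost in 1 or more fits that left out a library, and the cause was not tested. Among named genes the other settings gave 30 further cases of a lost call, such as Maff at an adjusted p under 0.01 and Il7r under the RPKM totals. Depth put 3 counts at 0.151 to 0.255 CPM, so falls of genes near that level in control were not detectable.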
